A study of Rattus norvegicus with 65 samples.

Results

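The hypothalamus is built from nuclei, and each nucleus is laid down and kept distinct by its own transcription factors. Here 10 such genes were described: Sim1, Otp, Nr5a1, Fezf1, Nkx2-1, Tbx3, Six6, Foxb1, Lhx9 and Lhx1. They were chosen by name, and all 10 were found among the 38513 genes of the count table. RNA was sequenced from hypothalami of 65 male Wistar rats, 1 library per animal, in 8 groups and in 2 experimental periods, called batch A (37 libraries) and batch B (28 libraries). The rats were 9 to 10 weeks old at the start, and the groups other than lean were made obese on a high-fat diet for 6 weeks. RYGB animals (n = 11 in A, 3 in B) received a Roux-en-Y gastric bypass, and sham animals (5 in A, 6 in B) a sham operation. BWM animals (7, A), listed in the study's abstract as sham plus body weight-matched, were food-restricted so that their body weight would follow that of the RYGB animals. Saline animals (3 in A, 5 in B) received saline by osmotic minipump and by injection. In PYY3-36 animals (4, B) the minipump gave this gut peptide at 0.1 mg/kg/day. In liraglutide animals (5, B) the injections gave this GLP-1 receptor agonist at 0.4 mg/kg/day, subcutaneously. PYY3-36 + liraglutide animals (5 in A, 5 in B) received both agents. Lean animals (6, A) carry that label only, and their diet is not tied to the label in the sources used here. The groups other than BWM and lean chose freely between a high-fat and a low-fat diet after the intervention, per the study's methods. Brains were taken 4 weeks after the intervention and after 10 hours of fasting.

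The members mark different territories. Sim1, a bHLH-PAS factor, and Otp, a homeodomain factor, are required for the neuroendocrine neurons of the paraventricular and supraoptic nuclei, which make vasopressin, oxytocin, CRH and TRH. Nr5a1 (the nuclear receptor SF-1) and the zinc finger factor Fezf1 mark the ventromedial nucleus. Nkx2-1 patterns the ventral hypothalamus, and Tbx3, a T-box factor, serves neurons of the arcuate nucleus. Six6 is known from the suprachiasmatic nucleus, the eye and the pituitary, Foxb1 from the mammillary nuclei, and the LIM homeodomain factor Lhx1 from the suprachiasmatic and mammillary nuclei. Lhx9, a related LIM homeodomain factor, is known from the orexin neurons of the lateral hypothalamus and from thalamic neurons. Since most of these genes are restricted to small nuclei in the adult, their level in a bulk dissection depends on how much of each nucleus it holds, and fewer cells of a type cannot be told apart from less RNA per cell.

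The RefSeq promoter table (rat build GRCr8) held 7 of the 10 members, and 4 are shown because they form several of the most closely correlated pairs described below: Nr5a1, Fezf1, Nkx2-1 and Six6. Each line gives the 250 bases before the annotated start, 5′ to 3′, in lower case. Capitals mark matches on either strand to 6 short motifs. The promoter elements searched were the TATA box with the letters TATAAA, the box written CCAAT, and the Sp1-type element with the letters GGGCGG, called GC box here. Those of transcription factor families were a homeodomain core with the letters TAATTA, a site for nuclear receptors such as SF-1 with the letters AAGGTCA, and the E-box of bHLH factors with the letters CANNTG. Overlapping or adjacent matches run together.
Nr5a1 (chr3:42896047-42896296, minus strand): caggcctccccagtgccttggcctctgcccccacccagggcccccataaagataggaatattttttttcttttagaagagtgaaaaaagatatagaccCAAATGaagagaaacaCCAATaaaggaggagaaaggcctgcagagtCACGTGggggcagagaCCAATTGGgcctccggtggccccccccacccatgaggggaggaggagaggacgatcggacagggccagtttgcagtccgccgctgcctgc
Fezf1 (chr4:52731719-52731968, minus strand): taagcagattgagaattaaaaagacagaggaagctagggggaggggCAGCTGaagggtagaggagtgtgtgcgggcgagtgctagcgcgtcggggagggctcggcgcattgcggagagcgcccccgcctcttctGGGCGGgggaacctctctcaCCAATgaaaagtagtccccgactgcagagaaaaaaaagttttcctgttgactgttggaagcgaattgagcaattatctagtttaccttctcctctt
Nkx2-1 (chr6:79734868-79735117, minus strand): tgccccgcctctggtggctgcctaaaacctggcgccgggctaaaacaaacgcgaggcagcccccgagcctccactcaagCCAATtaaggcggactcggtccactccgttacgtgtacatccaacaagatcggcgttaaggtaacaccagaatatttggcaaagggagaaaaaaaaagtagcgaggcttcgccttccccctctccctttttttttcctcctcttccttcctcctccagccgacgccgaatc
Six6 (chr6:97370185-97370434, plus strand): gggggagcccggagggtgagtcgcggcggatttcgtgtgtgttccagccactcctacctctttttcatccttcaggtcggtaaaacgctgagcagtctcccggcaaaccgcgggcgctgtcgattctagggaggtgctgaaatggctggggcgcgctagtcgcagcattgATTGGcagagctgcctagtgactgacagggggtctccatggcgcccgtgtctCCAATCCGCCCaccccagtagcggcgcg
All 4 windows held a box written CCAAT, as did 5 of the 7 members searched, against 34.0% of 33469 promoters of the same length. An E-box was found in 3 of the 7 (65.5% of all promoters) and a GC box in 4 of the 7 (30.5%). None of the 7 windows held a TATA box (12.9%), the homeodomain core (4.86%) or the nuclear receptor site (3.99%). These matches describe letters in a window only.

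Libraries held 20041010 to 36539941 reads counted to genes. The tissue label was checked against 4 peptide genes of the hypothalamus, Avp (vasopressin), Oxt (oxytocin), Hcrt (orexin) and Pmch (MCH). In 12 libraries they together stayed under 100 CPM (the standard unit for a gene's count relative to the total count of its library), between 4.03 and 98.2 CPM, and the next library stood at 373 CPM. These low-peptide libraries were 5 of the 37 in batch A (lean 2, and BWM, saline and sham 1 each) and 7 of the 28 in batch B (sham 2, liraglutide 2, and PYY3-36, PYY3-36 + liraglutide and saline 1 each), and there was none among the 14 RYGB libraries. Every comparison below was also run without them. Avp and Oxt come from the nuclei that Sim1 and Otp mark, and Lhx9 is known from the orexin neurons. The other members mark other territories of the same dissection. A set of libraries chosen on the peptides is thus not independent of the members.

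As a sum, the members went with the peptides. Summed over the 10 genes, their level was 6.77 to 41.0 CPM (median 18.2) in the 12 low-peptide libraries and 15.8 to 192 CPM (median 81.4) in the other 53, where CPM is scaled by TMM from here on. A member at 3 counts or fewer was found in 11 of the 12 low-peptide libraries and in 5 of the other 53, and 8 of the 12 had at least 3 such members while none of the 53 had more than 2. The library labelled sham replicate 2 held 6 members at 3 counts or fewer (Sim1, Otp, Nr5a1, Six6, Foxb1 and Lhx1). Single members could still be high in low-peptide libraries, as Sim1 in lean replicate 5 (18.3 CPM) and Lhx9 in sham replicate 2 (16.1 CPM). Striatal and cortical markers moved the opposite way to the summed members, while habenular and thalamic markers moved the same way. The 10 habenular and thalamic markers had medians of 173 CPM in the low-peptide libraries and 314 CPM in the others. Choroid plexus markers (6 genes) had medians of 42.2 and 57.7 CPM, and meningeal markers (7) 63.3 and 223 CPM. The 8 striatal markers summed to a median of 1394 CPM in the low-peptide libraries (range 365 to 5685) and 509 CPM in the others (270 to 3029), and the 6 cortical markers to 751 CPM (207 to 4435) and 223 CPM (108 to 2796). Neuronal markers (6 genes) had medians of 3477 and 2986 CPM, astrocyte markers (6) 2402 and 2722 CPM, and oligodendrocyte markers (6) 18430 and 19010 CPM. Tanycyte and ependymal markers (6) had medians of 256 and 141 CPM. Another 39 transcription factors of the hypothalamus also summed higher in the low-peptide libraries, with a median of 678 CPM beside 514.5 CPM. Their ranges overlapped (445.5 to 861 and 409 to 769 CPM). Another 3 libraries of few members had peptides over 100 CPM and high forebrain markers: RYGB replicate 6 with 15.8 CPM of members and 2796 CPM of cortical markers, saline replicate 8 with 23.8 CPM and 3029 CPM of striatal markers, and PYY3-36 + liraglutide replicate 6 with 27.3 CPM and 2232 CPM of striatal markers. The part of these differences in the results below was not tested beyond the values given without the low-peptide libraries.

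**Figure D1:**
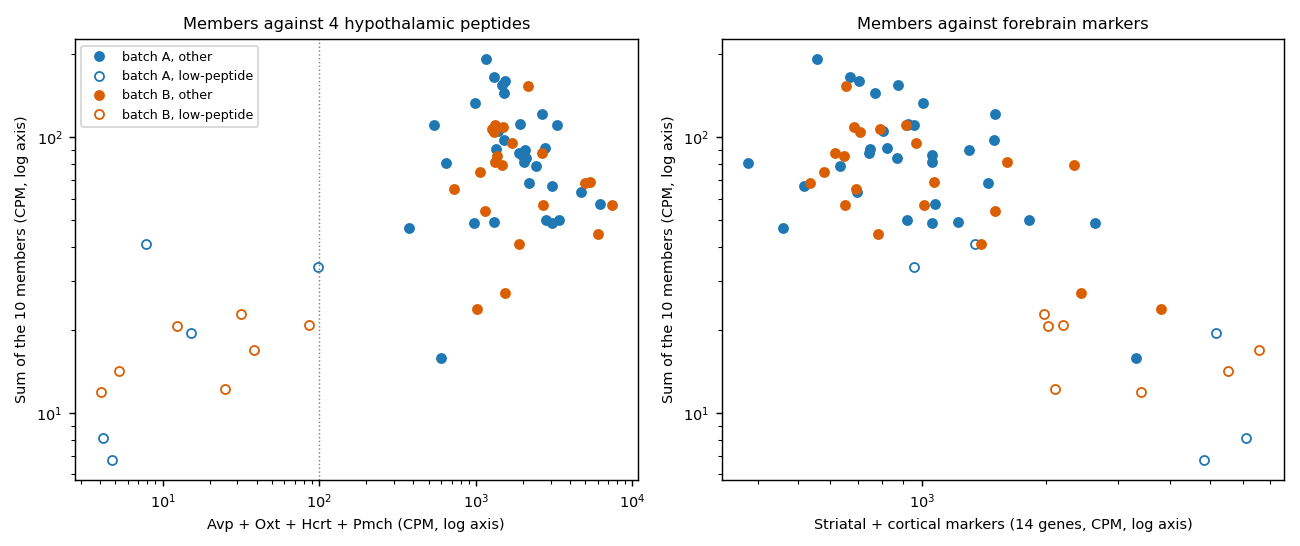
Summed level of the 10 members in each library (CPM, log axis) against the sum of Avp, Oxt, Hcrt and Pmch (left) and against 14 striatal and cortical markers (right), both in CPM on log axes, with batches A and B in blue and orange and open points for the 12 low-peptide libraries. The open points hold 6.77 to 41.0 CPM of members and the filled points 15.8 to 192 CPM.

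Per length (CPM per kilobase of combined exon, RPKM), Otp had the highest median of the 10 (5.39 RPKM), followed by Nkx2-1 (4.13), Fezf1 (3.81), Foxb1 (1.64), Nr5a1 (0.960), Lhx1 (0.887), Tbx3 (0.874), Six6 (0.756), Sim1 (0.683) and Lhx9 (0.390). All 10 genes ranged so widely over the 65 libraries that neighbours in this order overlapped: Otp ran from 0 to 21.5 RPKM and Lhx9 from 0.00598 to 4.99 RPKM. Within groups the spread was large for the abundance of these genes. The biological coefficient of variation that edgeR estimated ran from 0.629 for Tbx3 to 1.45 for Six6. It was 1.71 (Tbx3) to 3.60 (Fezf1) times the trend at the same abundance, which put the members between the 92.5th and the 99.45th percentile of the 22207 genes tested. The pooled SD within groups, on the scale of log2(CPM + 1), was 0.671 (Lhx1) to 1.57 (Fezf1), and 0.542 (Lhx1) to 1.29 (Nr5a1) without the low-peptide libraries. For each member, the 12 combinations of group and batch were put in order of their median CPM, and no 2 neighbours in any of the 10 orders had ranges that did not overlap.

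**Figure D2:**
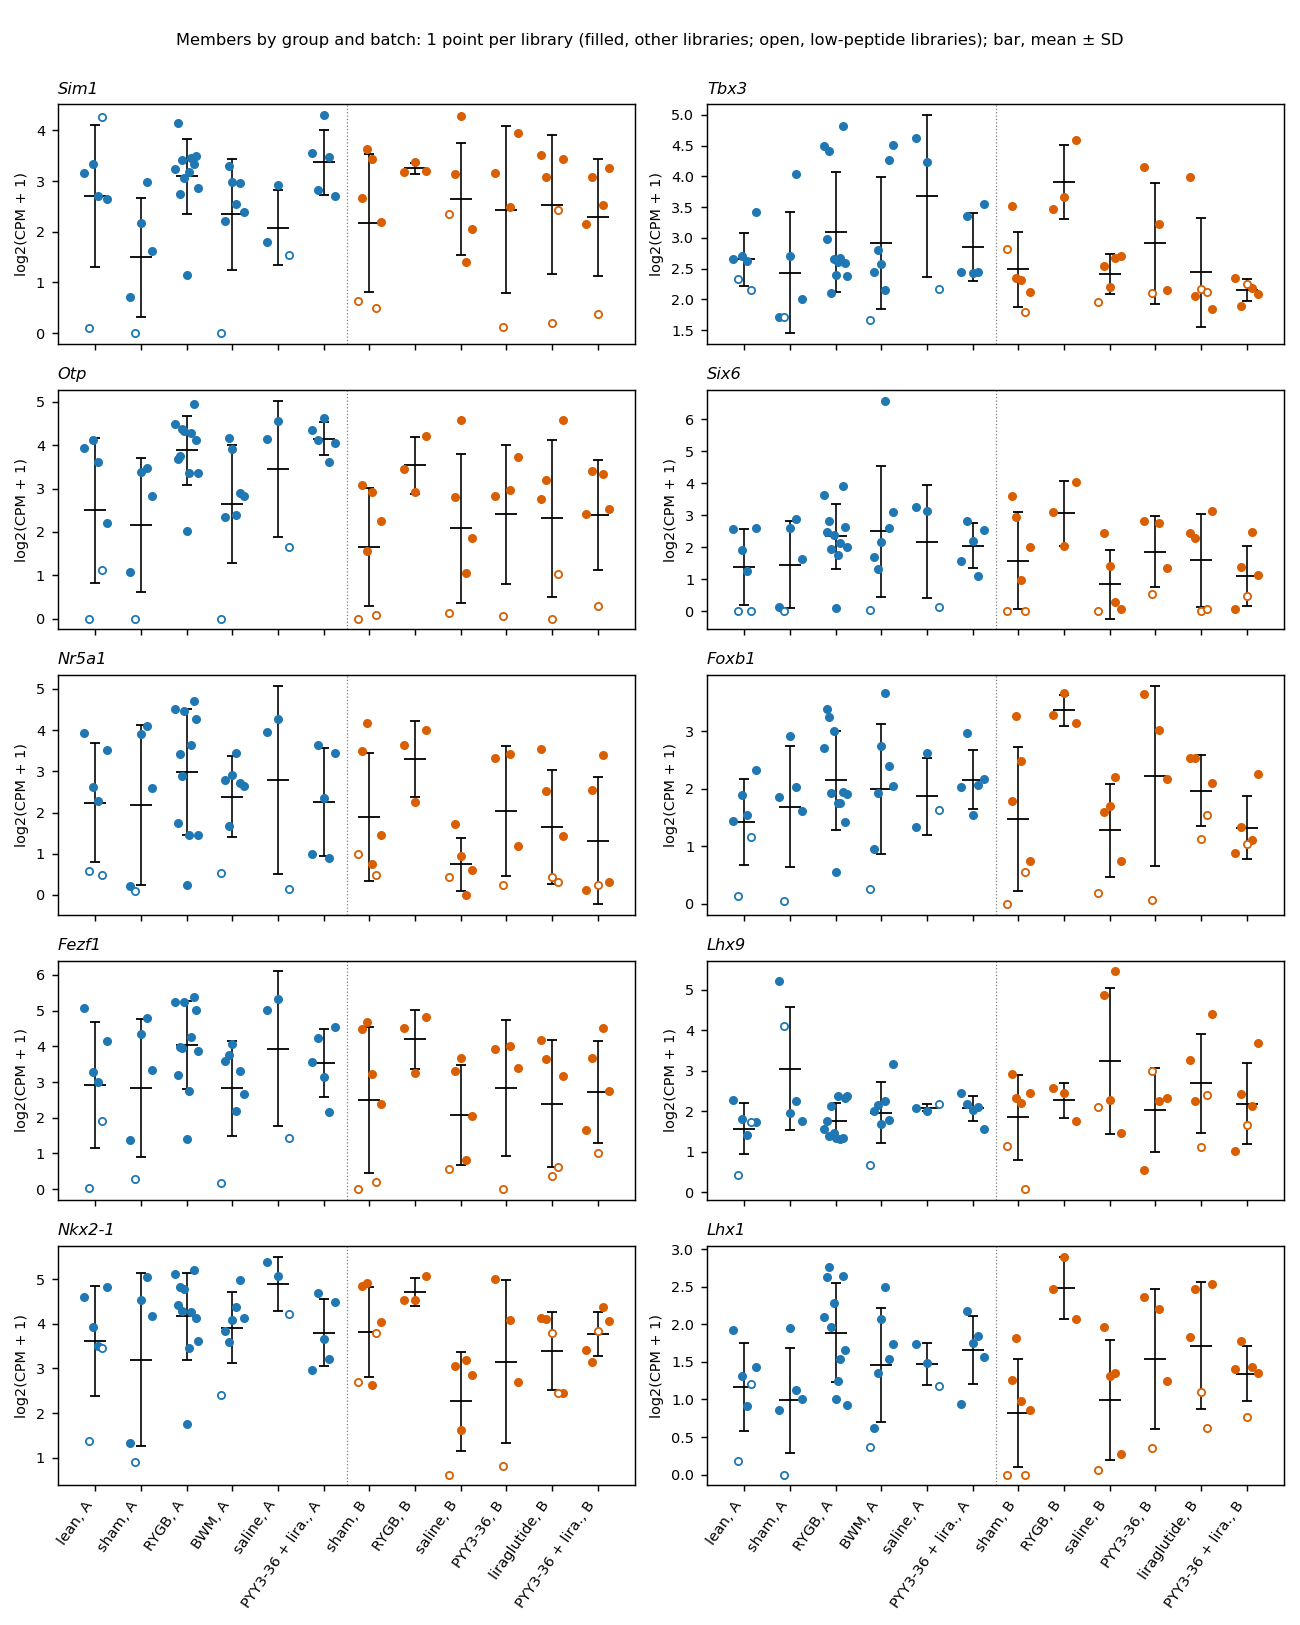
Level of each member, log2(CPM + 1), by group with batch A in blue and batch B in orange. Each point is 1 library, open points are the 12 low-peptide libraries, and bars show the mean ± SD of each group. Libraries of nearly every group span several log2 units, and open points lie at the bottom of most groups for Otp, Fezf1 and Six6.

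Across the 15 comparisons (11 within a batch, batch B against batch A, and 3 differences of a comparison between the batches), 1 of 150 tests of a member was called, at a Benjamini-Hochberg adjusted p under 0.05 over all 22207 genes and an absolute log2 fold change over 1 in edgeR's quasi-likelihood test. The call was Lhx9 in RYGB against sham in batch A. An unadjusted p under 0.05 was found in 20 of the 150 tests (13.3%), near the 13.9% among all genes in the same comparisons, so the members' share was near the background. Of the 20, Lhx9 held 9, Nkx2-1 4, Nr5a1 and Tbx3 2 each, and Sim1, Six6 and Lhx1 1 each.

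RYGB against sham, batch A, asks what gastric bypass changes in the obese hypothalamus. Here 680 of 22207 genes were called (3.06%), and 1 of the 10 members. The other 9 members were higher in RYGB, with a median log2 fold change over the 10 of 0.81 beside −0.02 over all genes, but none of the 9 passed the threshold. Without the low-peptide libraries the median was 0.57. The 7 meningeal markers summed to 39.0 to 1421 CPM (median 229) in RYGB and 25.8 to 58.4 CPM (median 34.0) in sham, and the 4 paraventricular and supraoptic peptides to 121 to 4270 CPM (median 1155) and 12.04 to 1433 CPM (median 355). Their part in the members' values was not tested. Lhx9 was 1.503, 1.96 and 4.19 CPM (lowest, median, highest) in the 11 RYGB libraries. In the 5 sham libraries it was 36.0, 16.1, 2.85, 3.78 and 2.38 CPM. The sham group thus had 2 high libraries, replicates 1 and 2, while the other 3 lay within the RYGB range, so the groups overlapped. Lhx9 fell by 2.27 on the log2 scale (SE 0.60, edgeR adjusted p = 0.0157). The call was lost without sham replicate 1, at −1.27 (edgeR adjusted p = 0.176), and also without sham replicate 2, at −2.15 (adjusted p = 0.0575). A fit with additive terms for group and batch gives 1 estimate of RYGB against sham over both batches. There Lhx9 was not called, at −1.38 (edgeR adjusted p = 0.0608). Without the low-peptide libraries, sham replicate 2 among them, it was −2.15 (adjusted p = 0.0274).

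Sham replicates 1 and 2 differed in their markers of other brain tissue. The 10 habenular and thalamic markers (among them Gpr151, Tcf7l2 and Prkcd) summed to 188 to 475 CPM in RYGB and 114.5 to 1332 CPM in sham of batch A, with sham replicate 1 at 1332 CPM, the highest of all 65 libraries. Sham replicate 2 was at 114.5 CPM on this list and at 4435 CPM for the 6 cortical markers, the highest of all libraries, with the habenular Gpr151 at 0. The part of these markers in the Lhx9 difference was not tested. Over all libraries Lhx9 was highest in saline replicate 7 (42.8 CPM, with 1117 CPM of these markers), sham replicate 1, saline replicate 5 (28.5 and 758 CPM) and liraglutide replicate 5 (20.1 and 647 CPM), and the other 61 libraries held 0.0513 to 16.1 CPM of Lhx9.

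**Figure D3:**
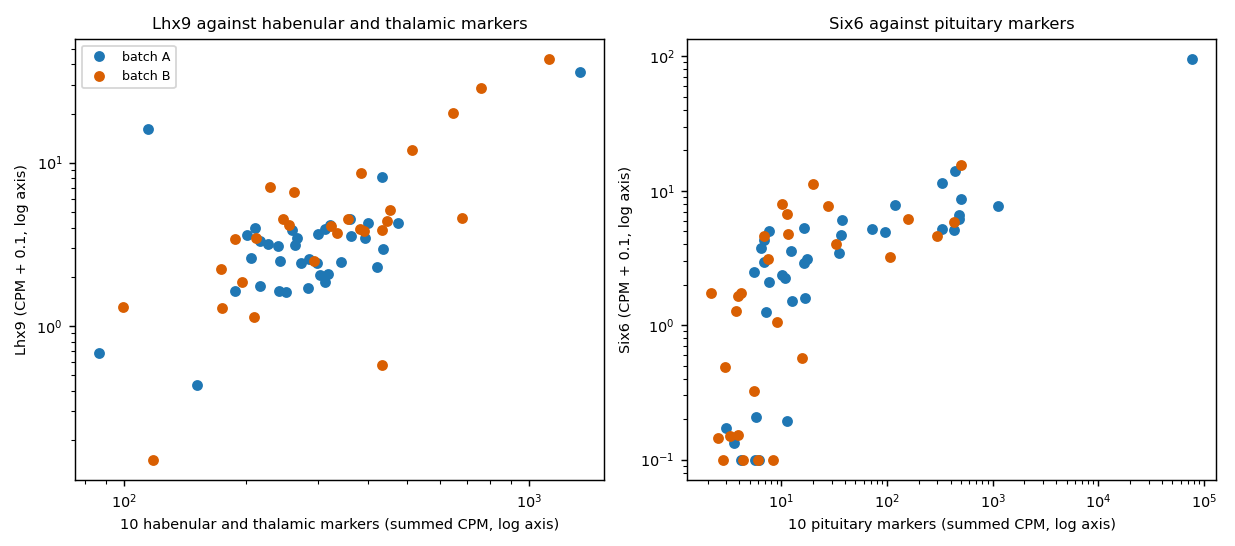
Left: Lhx9 (CPM + 0.1, log axis) against the summed CPM of 10 habenular and thalamic markers (log axis). Right: Six6 (CPM + 0.1, log axis) against the summed CPM of 10 pituitary markers (log axis). Each point is 1 of the 65 libraries, batch A in blue and batch B in orange. Sham replicate 1 lies at 1332 CPM of habenular and thalamic markers with 36.0 CPM of Lhx9, and BWM replicate 5 at 76740 CPM of pituitary markers with 94.7 CPM of Six6.

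The other 2 Lhx9 comparisons with sham in batch A share these 5 sham libraries. Lhx9 had a log2 fold change of −1.86 (SE 0.68, edgeR adjusted p = 0.0924) in BWM against sham, where 670 genes (3.02%) and none of the members were called. It was −2.49 (SE 0.73, adjusted p = 0.101) in lean against sham, where 17 genes (0.0766%) and none of the members were called in edgeR, while DESeq2 called Lhx9 (−2.49, adjusted p = 0.0283). BWM libraries held 0.583 to 8.05 CPM of Lhx9 and lean libraries 0.335 to 3.88 CPM. Both ranges overlapped that of sham. Without sham replicate 1 the 2 values were −0.87 (adjusted p = 0.505) and −1.51 (adjusted p = 0.229).

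In batch B, 2 of the 3 highest Lhx9 libraries were saline controls and the other was liraglutide replicate 5. Saline libraries held 42.8, 28.5, 3.81, 3.31 and 1.75 CPM, so 2 of the 5 stood far above the rest. PYY3-36 libraries held 7.02, 4.01, 3.74 and 0.472 CPM, within a range that overlapped saline. Lhx9 had log2 fold changes against saline of −2.08 (SE 0.83, edgeR adjusted p = 0.461) under PYY3-36, −1.81 (SE 0.76, adjusted p = 0.811) under PYY3-36 + liraglutide and −2.27 (SE 0.72, adjusted p = 0.299) in sham, and none passed the threshold. Without saline replicate 7 these were −1.30, −1.03 and −1.49. Of the 5 sham libraries of batch A 3 were above all saline libraries of that batch (3.49, 3.23 and 3.03 CPM). The log2 fold change was 1.91 (SE 0.92, edgeR adjusted p = 0.33), and 0.92 without sham replicate 1. With additive terms for group and batch, sham against saline has 1 estimate over both batches, and it was −0.51 (edgeR adjusted p = 0.779). That estimate includes the high saline libraries of batch B. In RYGB against sham of batch B, Lhx9 was 2.41, 4.46 and 4.997 CPM in RYGB and 0.0513 to 6.53 CPM in sham. The difference of that comparison between the batches, 2.52 (SE 1.01), did not pass (adjusted p = 0.335).

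Of the paraventricular pair, Sim1 had an unadjusted p under 0.05 in RYGB against sham of batch A alone. It was 1.22, 8.44 and 16.6 CPM (lowest, median, highest) in RYGB and 6.86, 3.52, 2.06, 0.63 and 0 CPM in sham. Of the 11 RYGB libraries 8 were above all sham libraries, and the other 3 overlapped them. The log2 fold change was 1.69 (SE 0.83, edgeR adjusted p = 0.187), and 1.38 (SE 0.49, adjusted p = 0.0979) without the low-peptide libraries. Otp, which acts with Sim1 in the same neurons, was 3.04, 16.3 and 29.9 CPM in RYGB and 0, 6.11 and 10.1 CPM in sham. These ranges overlapped, and Otp had no comparison with an unadjusted p under 0.05. Over the 65 libraries Sim1 ranged from 0 to 18.7 CPM (median 6.61) and Otp from 0 to 29.9 CPM (median 7.498), with 5 and 8 libraries at 3 counts or fewer. All of these were low-peptide libraries. The 3 genes most like Sim1 in their deviations within groups over the 65 libraries were Uncx, a homeodomain gene (r = 0.84), Nr2f2, the nuclear receptor COUP-TFII (0.83), and Pdzrn4 (0.83). Those most like Otp were Trh, the thyrotropin-releasing hormone precursor (0.88), RGD1311744 (0.85) and Gabrq, a GABA-A receptor subunit (0.84). Without the low-peptide libraries these correlations were 0.61 to 0.73.

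The ventromedial pair, Nr5a1 and Fezf1, had the largest pooled SDs within groups, 1.46 and 1.57 on the scale of log2(CPM + 1). Nr5a1 ran from 0 to 25.3 CPM over the 65 libraries (median 4.12) and Fezf1 from 0 to 40.8 CPM (median 9.18). In the 11 RYGB libraries of batch A alone Nr5a1 ran from 0.179 to 25.3 CPM and Fezf1 from 1.65 to 40.8 CPM. Saline libraries of batch B were all low for Nr5a1, at 2.32, 0.930, 0.514, 0.358 and 0 CPM, and sham libraries of that batch were at 17.1, 10.2, 1.73, 0.982, 0.675 and 0.411 CPM. The log2 fold change of sham against saline in batch B was 2.64 (SE 1.26, edgeR adjusted p = 0.503), in a comparison where 5 genes (0.0225%) were called. Saline libraries of batch A were at 18.2, 14.4 and 0.109 CPM, with 2 of the 3 above every saline library of batch B. Averaged over the 4 groups present in both batches, Nr5a1 was lower in batch B by a log2 difference of −1.28 (SE 0.62, edgeR adjusted p = 0.0916), and 8 of the 10 members had a negative value. In that comparison 1282 genes (5.77%) and none of the members were called. Leaving out PYY3-36 + liraglutide replicate 9 or sham replicate 8 brought Nr5a1 past the threshold (−1.57, adjusted p = 0.0421, and −1.50, adjusted p = 0.0486). Fezf1 had no comparison with an unadjusted p under 0.05.

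The genes most like Nr5a1 were Sox14, a transcription factor (r = 0.92), Nr0b1, the nuclear receptor DAX-1 (0.91), and Npvf, the precursor of the RFamide-related peptides (0.88), with 0.89, 0.87 and 0.82 without the low-peptide libraries. Those most like Fezf1 were Sytl4 (0.92), Mc3r, a melanocortin receptor (0.91), and LOC108350674 (0.91). The last is the nearest annotated gene to Fezf1. Fezf1 lies at chr4:50309281-50312608 (build Rnor_6.0, minus strand), and LOC108350674 lies on the plus strand at chr4:50313153-50320379, 544 bases away. Such neighbours recurred. The gene most like Nkx2-1 was LOC100911923 (r = 0.96, also 0.96 without the low-peptide libraries), an lncRNA at chr6:77375776-77416950, on the same strand as Nkx2-1 (chr6:77418096-77423383, minus strand) with a gap of 1145 bases. A second lncRNA, LOC102552092, overlaps Nkx2-1 on the opposite strand, and counting was strand-specific. Six6 (chr6:95816749-95821729, plus strand) lies 110 bases from the lncRNA LOC108351256, which had r = 0.80 with it. Lhx1 (chr10:71843991-71849293, minus strand) lies 892 bases from the lncRNA LOC102553190, with r = 0.73, and this lncRNA was the gene most like Foxb1 (r = 0.84), which is on chromosome 8. The nearest neighbour of Lhx9, RGD1566099 at a gap of 2060 bases, had r = 0.05. For the other 5 members the nearest gene had a mean under 10 counts. These lie at chr20:55590810-55674002 (Sim1, plus strand), chr2:24546393-24554953 (Otp, plus), chr3:22998900-23020441 (Nr5a1, minus), chr12:42479518-42494588 (Tbx3, minus) and chr8:75992751-75995371 (Foxb1, minus), and Lhx9 lies at chr13:55854543-55879305 (minus).

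Nkx2-1 was detected in all libraries, from 0.537 to 40.8 CPM (median 15.6), and Tbx3 likewise, from 2.17 to 27.2 CPM (median 4.81). Nkx2-1 differed most in saline. Saline libraries of batch A held 40.8, 32.9 and 17.5 CPM, and those of batch B 8.09, 7.26, 6.27, 2.07 and 0.537 CPM, which do not overlap. The share of all genes without overlap between these libraries was not counted. In batch B against batch A 48.5% of all genes had an unadjusted p under 0.05. Within batch B, sham libraries held 29.3, 27.9, 15.4, 12.9, 5.46 and 5.16 CPM of Nkx2-1, of which 4 were above all saline libraries. Nkx2-1 had a log2 fold change of 1.73 (SE 0.69, edgeR adjusted p = 0.428) in sham against saline and of 1.45 (SE 0.71, adjusted p = 0.811) in PYY3-36 + liraglutide against saline. In the latter comparison 3 genes (0.0135%) were called. The differences of these comparisons between the batches were 2.78 (SE 1.03, adjusted p = 0.287) and 2.51 (SE 1.04, adjusted p = 1), and neither passed.

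Tbx3 had a few libraries far above the others in several groups. In RYGB of batch A, 3 of 11 libraries held 20.2 to 27.2 CPM and the other 8 held 3.31 to 6.94 CPM. In RYGB of batch B, the 3 libraries held 23.2, 11.7 and 10.1 CPM, and sham libraries of that batch held 10.5, 6.06, 4.08, 3.96, 3.36 and 2.46 CPM. All but 1 of the sham libraries were below all RYGB libraries. The log2 fold change was 1.56 (SE 0.64, edgeR adjusted p = 0.14) in the fit of all libraries and 1.58 (adjusted p = 0.0454) when only batch B was fitted. In sham against saline of batch A, Tbx3 was −1.40 (SE 0.67, adjusted p = 0.329). The genes most like Tbx3 were Fndc3c1 (r = 0.92), Galp, the precursor of galanin-like peptide (0.91), and LOC103694495 (0.91), with 0.91 to 0.94 without the low-peptide libraries. After the lncRNA beside it, those most like Nkx2-1 were Dgkk, a diacylglycerol kinase (0.82), and Col2a1, a collagen gene (0.81).

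Six6 was at 3 counts or fewer in 14 of the 65 libraries, more than any other member, and 10 of these were low-peptide libraries. BWM replicate 5 held 94.7 CPM of Six6 (2643 counts), and the other 6 BWM libraries held 7.55, 5.02, 3.49, 2.27, 1.49 and 0.0324 CPM. Sham libraries of batch A held 6.46, 5.14, 2.13, 0.0945 and 0 CPM. The log2 fold change of BWM against sham was 2.57 (SE 1.27, edgeR adjusted p = 0.251) and was 0.28 (adjusted p = 0.95) without BWM replicate 5. In this library the 10 pituitary markers summed to 76740 CPM, led by Gh1 (growth hormone, 62620 CPM) and Prl (prolactin, 12870 CPM). In the other 64 libraries Six6 did not exceed 15.45 CPM. The pituitary list ranged from 3.60 to 76740 CPM in BWM and from 5.64 to 478 CPM in sham of batch A. The genes most like Six6 were Usp51 (r = 0.89), Spint2, a protease inhibitor (0.88), and Esr1, the estrogen receptor alpha (0.88).

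Lhx1 had the lowest CPM of the members (0 to 6.46 CPM, median 1.69) and the only groups that did not overlap among the members with an unadjusted p under 0.05. In batch B the 3 RYGB libraries held 6.46, 4.57 and 3.20 CPM, and the 6 sham libraries held 2.52, 1.40, 0.965, 0.816, 0 and 0 CPM. All RYGB libraries were above all sham libraries. The share of all genes whose groups do not overlap here was not counted. In this comparison 21.6% of all genes had an unadjusted p under 0.05. The log2 fold change was 2.30 (SE 0.83, edgeR adjusted p = 0.0952), in a comparison where 345 genes (1.55%) and none of the members were called. The 2 sham libraries at 0 were low-peptide libraries, and without all such libraries the value was 1.73 (SE 0.60, adjusted p = 0.189). In batch A Lhx1 was 0.903, 2.90 and 5.76 CPM (lowest, median, highest) in RYGB and 2.89, 1.17, 1.01, 0.819 and 0 CPM in sham, and the groups overlapped. All 10 members had a positive value in RYGB against sham of batch B, with a median of 1.11 beside −0.02 over all genes. Without the low-peptide libraries, which include 2 of the 6 sham and no RYGB libraries, 9 of the 10 were positive, Lhx9 was at −0.23 and the median was 0.56. Markers of several tissues moved with these groups. Striatal markers summed to 436 to 499.5 CPM in RYGB and 524.6 to 5547 CPM in sham of batch B, and did not overlap. Cortical markers summed to 179.6 to 187 CPM and 155 to 1022 CPM, and overlapped. Pituitary markers (10 genes) were at 27.5 to 505 CPM in RYGB and 5.95 to 19.9 CPM in sham, and did not overlap either. Arcuate peptides (7 genes) were at 303 to 525 CPM and 129 to 423 CPM, and habenular and thalamic markers at 294 to 681.5 CPM and 99.3 to 335 CPM. Their part in the members' values was not tested. Foxb1 ran from 0 to 11.7 CPM (median 2.75) and held 11.6, 8.67 and 7.86 CPM in RYGB of batch B, against 0 to 8.59 CPM in sham of that batch. It had no comparison with an unadjusted p under 0.05. After the lncRNA beside Lhx1, the genes most like Foxb1 were Gpx3, a glutathione peroxidase (0.79), and Vat1 (0.79), and those most like Lhx1 were Nynrin (0.83), Gabre, a GABA-A receptor subunit (0.80), and Vat1 (0.79).

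**Figure D4:**
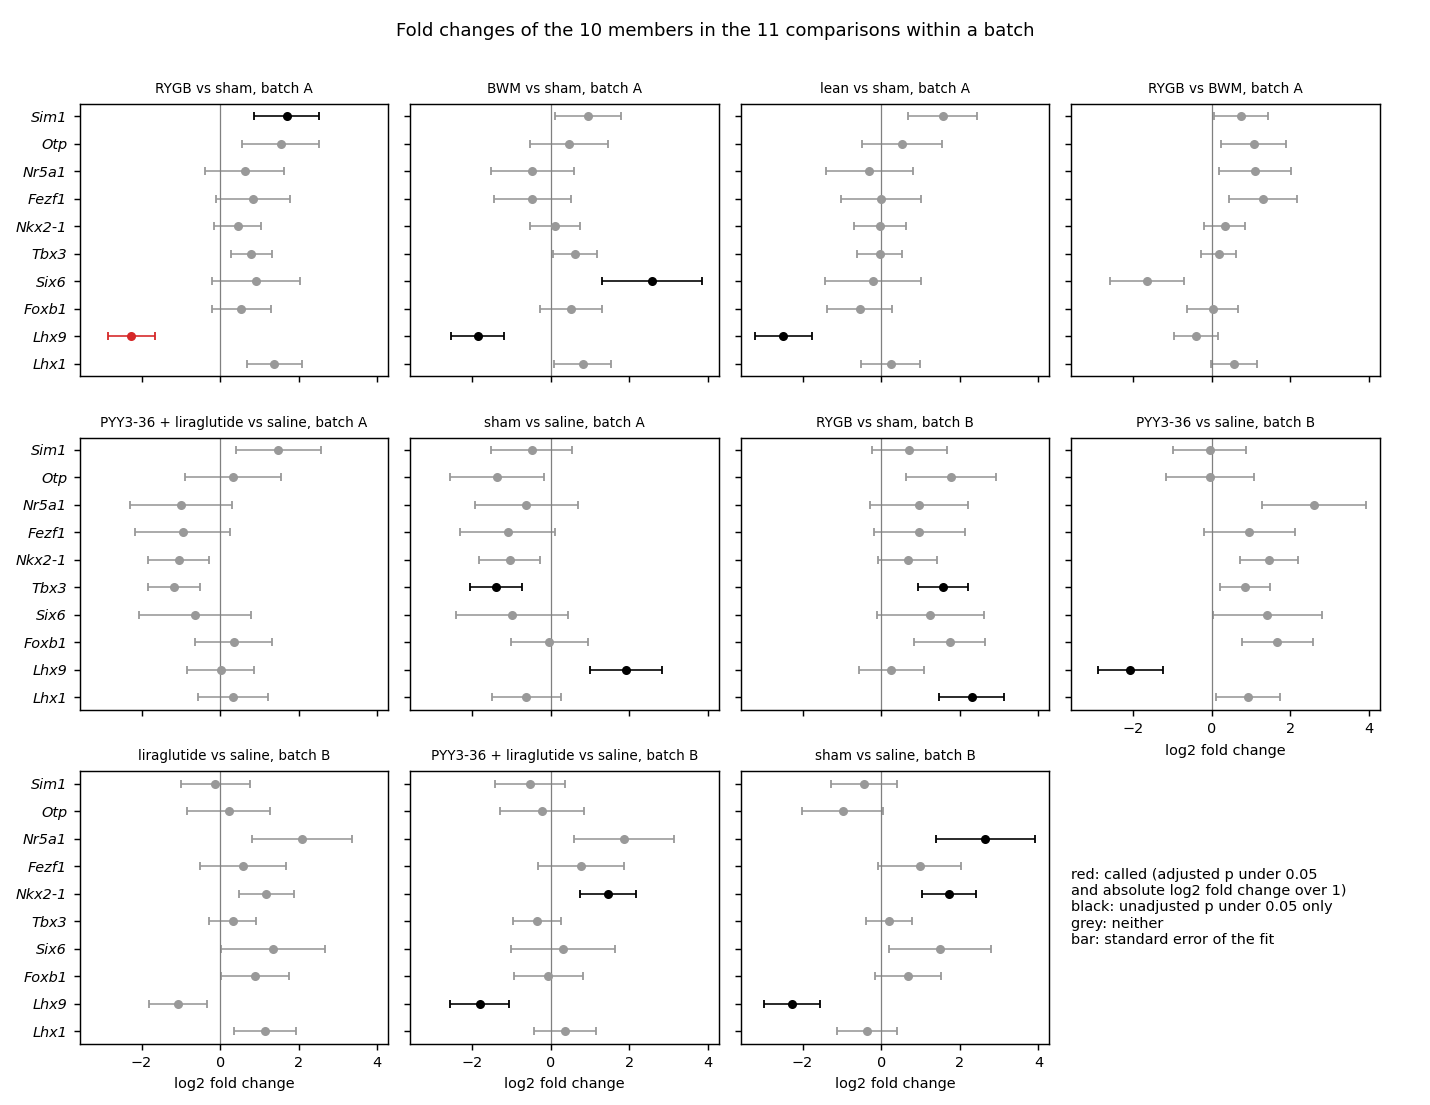
Log2 fold change of each member in the 11 comparisons within a batch, with the standard error of the fit as bars. Red marks the call of Lhx9 in RYGB against sham of batch A, black an unadjusted p under 0.05 without a call, and grey neither.

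The remaining comparisons held no call of a member. RYGB against BWM in batch A, which sets bypass against food restriction aimed at its body weight, had 37 called genes (0.167%), and the members ran from −1.65 to 1.30 on the log2 scale (SE 0.45 to 0.93). PYY3-36 + liraglutide against saline had no called gene in batch A (0%, with 166 genes at an unadjusted p under 0.05 and 3 genes called by DESeq2), and the members ran from −1.17 to 1.48 (SE 0.67 to 1.43). Sham against saline had none in batch A (0%, with 3165 genes at an unadjusted p under 0.05 and 28 called by DESeq2). In batch B, PYY3-36 against saline had 1 called gene (0.0045%), and liraglutide against saline had 2 (0.00901%), where the members ran from −1.08 to 2.09 (SE 0.60 to 1.32). The difference between batches was called for no gene in RYGB against sham (0%, 2302 at an unadjusted p under 0.05, 138 by DESeq2) and in PYY3-36 + liraglutide against saline (0%, 736 and 13), and for 1 gene in sham against saline (0.0045%). In the last of these Lhx9 had −4.18 (SE 1.19, edgeR adjusted p = 0.169) and was called by DESeq2 (−4.16, adjusted p = 0.0359), with the high libraries described above in sham of batch A and in saline of batch B. With SEs of 0.45 to 1.43 for members within a batch, a change of 1 log2 unit was often not detectable at this spread.

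Most members rose and fell together within groups. After the mean of each group and batch was subtracted, log2(CPM + 1) of the members correlated with a median Pearson's r of 0.60 over the 45 pairs and 65 libraries, and 35 pairs passed a permutation test at an adjusted p under 0.05 over the 45 pairs, all with positive r. Spearman's rho passed in 34. The share of pairs of other genes that would pass the same test was not counted, so these numbers have no background beside them. Within batch A 35 pairs passed and within batch B 28. Without the low-peptide libraries the median r was 0.305 and 19 pairs passed over 53 libraries, again all positive. The summed levels of the 2 sets of libraries overlap, and both values are given.

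The strongest pairs within groups were Nr5a1 and Fezf1 (r = 0.87, rho = 0.88, permutation p = 1e-05, the smallest the resamples can give, adjusted p = 2.05e-05), Otp and Fezf1 (r = 0.86, rho = 0.79), Nr5a1 and Six6 (r = 0.82, rho = 0.85), Foxb1 and Lhx1 (r = 0.81, rho = 0.79) and Sim1 and Otp (r = 0.80, rho = 0.72). Without the low-peptide libraries Nr5a1 and Fezf1 stayed at 0.84 and Nr5a1 and Nkx2-1 were at 0.78, and next came Nr5a1 and Six6 (0.73), Foxb1 and Lhx1 (0.68) and Sim1 and Otp (0.68). Several pairs of factors of different territories had lower r once those libraries were left out. Otp and Nkx2-1 went from 0.52 to 0.15 and Otp and Foxb1 from 0.55 to 0.02. Sim1 and Tbx3, which passed in neither set, went from 0.23 to 0.01. Some pairs with Nkx2-1, which patterns the ventral hypothalamus and not a single nucleus, changed little. Nkx2-1 and Tbx3 were at 0.62 in both sets, and Nr5a1 and Nkx2-1 went from 0.76 to 0.78. Lhx9 was the exception among the members. None of its 9 pairs passed over 65 libraries (r from −0.11 to 0.23), nor without the low-peptide libraries (−0.28 to 0.04), while 35 of the other 36 pairs passed over the 65. The genes most like Lhx9 were Shox2, a homeodomain factor (r = 0.72), Plekhg1 (0.70) and Vil1, villin (0.70), and these rose to 0.76 to 0.86 without the low-peptide libraries.

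**Figure D5:**
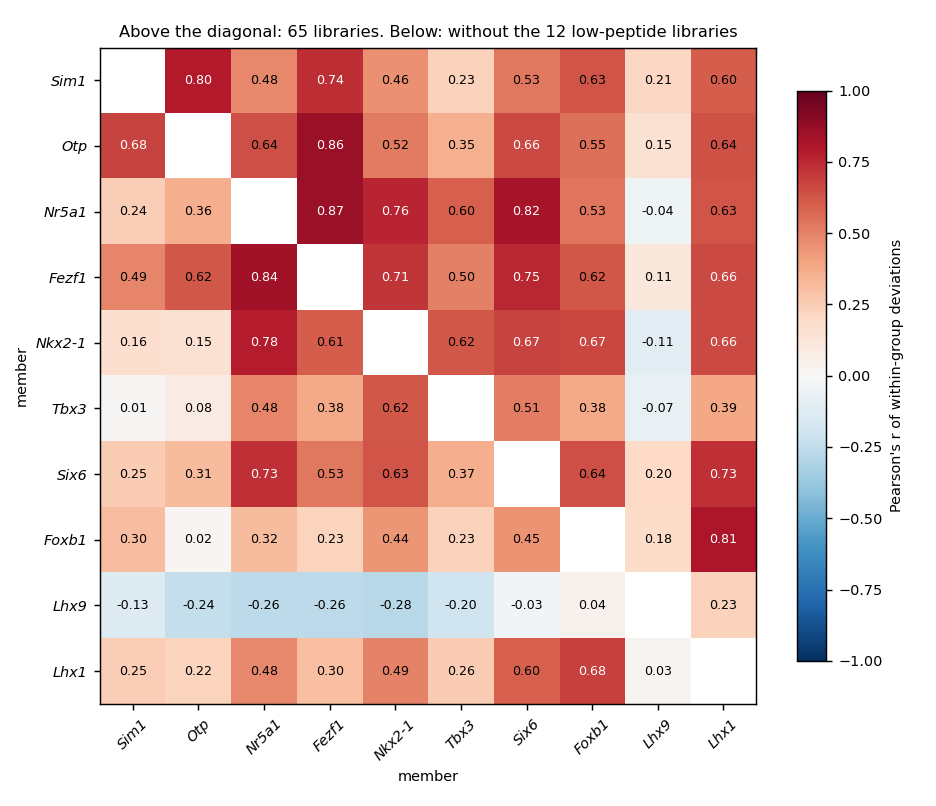
Pearson's r between members after the mean of each group and batch was subtracted from log2(CPM + 1). Values above the diagonal use all 65 libraries and values below it the 53 that are not low-peptide. Nr5a1 and Fezf1 have 0.87 and 0.84, and Lhx9 has −0.28 to 0.23 with all others.

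Of 39 other transcription factors of the hypothalamus that were measured, few were called in any comparison. There were 3 in BWM against sham of batch A (7.69% of the 39, beside 3.02% of all genes). Among them were Tbx2, a T-box relative of Tbx3 (log2 fold change 1.16, SE 0.33, edgeR adjusted p = 0.0252), and Prox1, a homeodomain factor, which fell by 1.08 (SE 0.31, adjusted p = 0.0257). Prox1 also fell in lean against sham, by 1.42 (SE 0.32, edgeR adjusted p = 0.046), the only call of the 39 there (2.56%, beside 0.0766% of all genes). It was highest in sham replicates 2 and 1 (75.2 and 46.1 CPM), the libraries high in Lhx9. Foxa1, a forkhead factor, was higher in RYGB than in sham of batch B, where RYGB libraries held 0.451 to 2.08 CPM and sham libraries 0 to 0.0482 CPM (edgeR adjusted p = 0.0456). It was the only call of the 39 there (2.56%, beside 1.55% of all genes). None of the 39 was called in RYGB against sham of batch A (3.06% of all genes). Between the batches 6 of the 39 (15.4%, beside 5.77% of all genes) were called. All 6 were lower in batch B, as were 1149 of the 1282 genes called over all genes. The 3 of smallest p were Barhl1 (−2.36, SE 0.66, adjusted p = 0.00297), Foxa1 (−2.93, SE 0.83, adjusted p = 0.00344) and Bsx (−2.48, SE 0.74, adjusted p = 0.00565), the first a mammillary and the last an arcuate homeodomain factor.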

How the data were processed

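Per the labels and the study's methods, the authors prepared poly-A stranded libraries, sequenced single-end reads, trimmed them with Cutadapt (1.16 per the labels, with later versions also named in the methods), aligned them to Rnor_6.0 with STAR 2.7.2b and counted them with featureCounts 1.6.4, strand-specifically, with multi-mapping and overlapping reads split as fractions. What was deposited are thus estimated counts, which were rounded to whole numbers here. Split reads can blur a gene with near-identical copies. Samples were grouped by their labels.

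Genes were filtered with edgeR's filterByExpr (minimum count 10, minimum total 15), leaving 22207 genes, and the 65 libraries were fitted together in edgeR 4.0.16 (R 4.3.3) with TMM scaling and the quasi-likelihood test, with 1 mean per combination of group and batch (12). A gene was called at a Benjamini-Hochberg adjusted p under 0.05 where its log2 fold change also exceeded 1 in either direction. SEs are the log2 fold change over the root of F. Fitting was tested on simulated data. Correlations used log2(CPM + 1) and two-sided permutation tests with 100000 resamples within groups. Libraries held 20041010 to 36539941 counts. P-values measure the spread between animals. Alternatives were DESeq2 1.42.0, its size factors, no filter, additive group and batch, each batch alone, a replicate block, another pseudocount, no minimum fold change, leaving out each library and, added after the data were seen, leaving out the low-peptide libraries. DESeq2 was run without its replacement of outlier counts, its outlier cutoff (Cook's distance) and its independent filtering. Its calls are thus not guarded against single high libraries. The members and lists were chosen with earlier results of these data known. All 10 members are named. Fold changes are given for members with an unadjusted p under 0.05, 3 genes most alike are named for each member among genes of at least 10 counts on average, and at most the 3 other factors of smallest p are named for a comparison, of which 1 is not reported here. Replicate numbers did not pair samples.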

Additional observations from a re-analysis of the deposited data

Results flagged for a closer look

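In 7 of 90 tests of a member within a group of 4 to 10 libraries, 1 library lay far from the others by Dixon's criterion. For normally distributed values chance gives this in about 1 of 20 groups. The criterion was applied to CPM without a log, and the chance rate for such values was not determined. All 7 were the highest of their group and none was a low-peptide library. Six6 was 94.7 CPM in BWM replicate 5, with 0.0324 to 7.55 CPM in the other 6 libraries, and this library also held 76740 CPM of pituitary markers. Tbx3 was 15.4 CPM in sham replicate 4 of batch A (others 2.27 to 5.49 CPM), 15.0 CPM in liraglutide replicate 1 (2.60 to 3.50 CPM) and 9.69 CPM in lean replicate 6 (3.46 to 5.52 CPM). Otp was 23.0 CPM in saline replicate 6 of batch B (0.0895 to 5.95 CPM). Foxb1 was 3.77 CPM in PYY3-36 + liraglutide replicate 10 (0.848 to 1.52 CPM). Lhx9 was 8.05 CPM in BWM replicate 7 (0.583 to 3.80 CPM). None of the 30 tests of a member's difference between batches passed the threshold in edgeR. With unadjusted p under 0.05 there were 4, and DESeq2 called 1.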

How the results depend on the processing

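The number of members called stayed at its main value in all but 4 of the settings other than leaving out a library: DESeq2 called 1 in lean against sham of batch A and 1 in the difference of sham against saline between batches, and RYGB against sham of batch B gave 1 (Lhx1) with additive group and batch and 1 (Tbx3) in batch B alone. The correlated pairs numbered 19 without the low-peptide libraries. Leaving out each library gave 0 to 1 members called in RYGB against sham of batch A and 0 to 1 between the batches. With additive group and batch, a comparison has 1 estimate over both batches, not 1 per batch. The call of Lhx1 in that setting is thus for RYGB against sham over both batches, where Lhx9 was not called. For single members, 125 values kept their direction and side of the threshold, and 4 came past it. With additive group and batch, 1 lost it (Lhx9 in RYGB against sham, −1.38, edgeR adjusted p = 0.0608). In the same setting 1 reversed (Lhx9 in sham against saline, −0.51, beside 1.91 in batch A alone). With the replicate block, 1 member was called in RYGB against sham of batch A (Lhx9, −2.41, adjusted p = 0.0185). Same-numbered libraries had a median correlation of their deviations of 0.0043 and others of −0.0047, so the numbers are not a pairing. DESeq2 called 199 genes where edgeR called 17 in lean against sham of batch A, and 592 where it called 345 in RYGB against sham of batch B, and 12, 10, 23 and 21 where it called 1, 2, 3 and 5 in PYY3-36, liraglutide, PYY3-36 + liraglutide and sham against saline of batch B, and 81 against 1 in the difference of sham against saline. Members at 3 counts or fewer limit any fold change in those libraries.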
